A study of Homo sapiens with 8 samples.

Results

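Tight junctions are the outermost cell-cell contacts of an epithelium. Claudins are the membrane proteins whose strands seal the space between neighbouring cells or form selective pores in it, and occludin is a further membrane protein of the same strands. The zonula occludens proteins, encoded by TJP genes, lie beneath the membrane and tie the strands to the actin cytoskeleton. In intestinal epithelium sealing claudins such as CLDN3, CLDN4 and CLDN7 are known as markers of the epithelial state, and several claudins are known to differ between colorectal tumours and normal mucosa.

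The genes described are 9 chosen by symbol, CLDN1, CLDN2, CLDN3, CLDN4, CLDN7, CLDN12, OCLN, TJP1 and TJP3, out of 58735 genes in the deposited table. Each symbol matched 1 row. RNA was sequenced from SW480, a human colorectal adenocarcinoma line, in 8 libraries. All cells had been infected with lentivirus and selected with puromycin. In 4 libraries they carried the empty vector (controls) and in 4 they stably overexpressed FLAG-tagged SPOCK1, a proteoglycan that cells secrete into the matrix. Whether a group's libraries came from separate cultures is not stated in the labels, so p-values measure only the spread between these libraries and that spread may be technical. A group may be 1 selected population, and then other differences between the populations cannot be told apart from SPOCK1.

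Libraries held 35643585 to 42812951 counts, and SPOCK1 had 15 counts in all controls together against 33223 in the overexpressing libraries. Of 7 epithelial markers fixed for the labelled cell type, 6 passed the filter on low counts and 0 were called as changed, where 1.04% of all tested genes were called. For VIL1 the groups did not overlap and SPOCK1 was lower, as in 4.80% of all tested genes. Its log2 fold change was -0.27 (adjusted p = 0.197 in the edgeR test used below). KRT20 had 7 and 12 counts in the groups. The summed level of 3 leukocyte markers lay between 0.0244 and 0.324 CPM (counts scaled to the size of the library) in controls and between 0.0570 and 0.324 with SPOCK1. That of 4 fibroblast markers lay between 1.05 and 2.29 and between 1.06 and 1.78 CPM, with DCN at 0 counts in every library. The sum of 3 endothelial markers lay between 0.485 and 1.27 CPM in controls and between 0.856 and 1.23 with SPOCK1, with CDH5 at 0 in every library. Ribosomal RNA took 0.697% to 0.738% of control counts and 0.560% to 0.671% of SPOCK1 counts, without overlap, and its part in the results below was not tested.

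CLDN7 and CLDN4, the most highly expressed of the 9 genes per length, were lower in SPOCK1-overexpressing cells. CLDN7 fell by 29.7% and CLDN4 fell by 22.3%. For CLDN1, CLDN3, CLDN12, OCLN, TJP1 and TJP3 the difference did not pass the test, and CLDN2 was too low to be tested. Thus 2 of 8 tested genes were called as lower and 0 as higher, where 1.04% of all 15790 tested genes were called, 0.798% as lower and 0.247% as higher (edgeR quasi-likelihood test, adjusted p under 0.05). The 9 genes were chosen with earlier results of these data known, so these shares are a description. The log2 fold changes of all 8 were negative and their median was -0.19. Over all tested genes 50.9% were negative and the median was -0.0042. The 8 genes are not independent, since they varied together in sets described below, and the signs of TJP1 and CLDN1 turned in some fits. In bulk RNA, fewer cells that express a gene and less RNA per cell cannot be told apart.

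CLDN7 encodes a claudin that is known to bind the adhesion molecule EPCAM. It is annotated on the minus strand of chromosome 17, from 7259903 to 7263983 (ENSG00000181885), in the coordinates deposited beside the counts, which are those of GENCODE release 29 on GRCh38. RefSeq places 2 transcription starts in this gene. The window around the downstream start, chr17:7262429-7262728 on GRCh38.p14, reaching from 250 bases before the start to 50 after it, held 5 matches to the E-box CAGGTG or its reverse complement CACCTG. At least 1 match was present in 20.6% of 35116 such windows of all genes, and 5 or more in 0.0940%. The count of 5 was the highest among the 16 windows of the 9 genes, and the motifs were chosen after values were seen. Whether it bears on the level of CLDN7 was not tested. E-boxes of this type are known binding sites of the Snail and ZEB repressors of epithelial genes. Of the 5 matches 4 are shown, in capitals and as read on the minus strand, because CLDN7 had the smallest p of the genes described. The stretches are chr17:7262638-7262661, chr17:7262599-7262622 and chr17:7262476-7262504, the last with a pair of E-boxes, and the window overlaps exons that GENCODE release 29 annotates.
CLDN7 E-box 1: cttcctcctCACCTGggcaaggag
CLDN7 E-box 2: cttccggttCAGGTGagtgtccct
CLDN7 E-boxes 3 and 4: tatactCAGGTGcgcccCACCTGtccgcc
A match is a description of letters and not a measured site.

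All 9 genes had RefSeq windows, 16 in total. The window of CLDN4 and the upstream window of CLDN7 held 0 E-boxes. CLDN3 had 1, OCLN had 1 and 2 in its overlapping pair of windows, TJP1 had 1 in a single one of its 4 windows and TJP3 had 1 in a single one of its 2. The GC box GGGCGG (reverse complement CCGCCC), a known site of SP1-type factors, occurred 6 times in the window of CLDN3. It occurred 2 times in those of CLDN1 and downstream CLDN7, once in that of CLDN4 and up to 3 times in a window of TJP1. Windows of the other genes held 0 or 1. Of all windows 45.0% held at least 1 and 5.14% held 5 or more. The grainyhead motif AACCNGGTT, which reads the same on both strands and is known from GRHL factors of epithelia, was in 0 of the 16 windows and in 0.239% of all. The ETS motif GGAAGT (reverse complement ACTTCC), recognised by factors such as ELF3, had 1 match each in windows of CLDN7, CLDN12 and TJP1 and at least 1 in 22.8% of all. In the 16 windows 0 E-box matches overlapped a match to another of these motifs. Neither a match nor its absence is a measure of binding.

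CLDN7 stood at 130.0, 153.9, 138.0 and 156.7 CPM in control libraries 1 to 4. It stood at 100.3, 104.3, 91.8 and 110.3 CPM in SPOCK1 libraries 1 to 4. The groups did not overlap, as in 4.80% of all tested genes in this direction and 3.43% in the other. The means were 144.6 ± 12.8 and 101.7 ± 7.74 CPM (SD, n = 4 each), and the log2 fold change was -0.51 ± 0.085 (SE), with a 95% interval of -0.69 to -0.33 and an adjusted p of 0.00528. The call was kept in each of 8 fits without 1 library, with adjusted p of 0.00462 to 0.0316. It was also kept with per-library offsets for GC content and exonic length, where the log2 fold change was -0.47 (adjusted p = 1.04e-04).

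The CLDN7 locus overlaps ELP5, a subunit gene of the Elongator complex, by 38 exonic bases on the opposite strand. ELP5 stood at 81.7 ± 8.96 and 86.8 ± 5.21 CPM (SD, n = 4 each; log2 fold change 0.088, adjusted p = 0.708). AC003688.1, annotated on the same strand, shares 269 bases or 10.8% of the exonic bases of CLDN7 and had 0 counts in all 8 libraries. Strandedness and how shared bases were counted were not given in the sources used here.

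CLDN4 encodes a sealing claudin and lies beside CLDN3 on chromosome 7 (plus strand, 73799542 to 73832693, ENSG00000189143). It stood at 198.9, 220.3, 205.7 and 221.9 CPM in control libraries 1 to 4. It stood at 152.6, 165.1, 160.2 and 180.2 CPM in SPOCK1 libraries 1 to 4. The highest SPOCK1 library lay below the lowest control. Means were 211.7 ± 11.2 and 164.5 ± 11.7 CPM (SD, n = 4 each). On the log2 scale the change was -0.36 ± 0.076 (SE), with a 95% interval of -0.53 to -0.20 and an adjusted p of 0.0263. Removing control library 2, 3 or 4, or SPOCK1 library 2 or 3, ended the call, with adjusted p of 0.104, 0.0583, 0.0880, 0.105 and 0.1001, while the log2 fold change stayed between -0.41 and -0.33 over the 8 such fits. With offsets for GC content and length, the value was -0.30 (adjusted p = 0.00191).

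**Figure D1:**
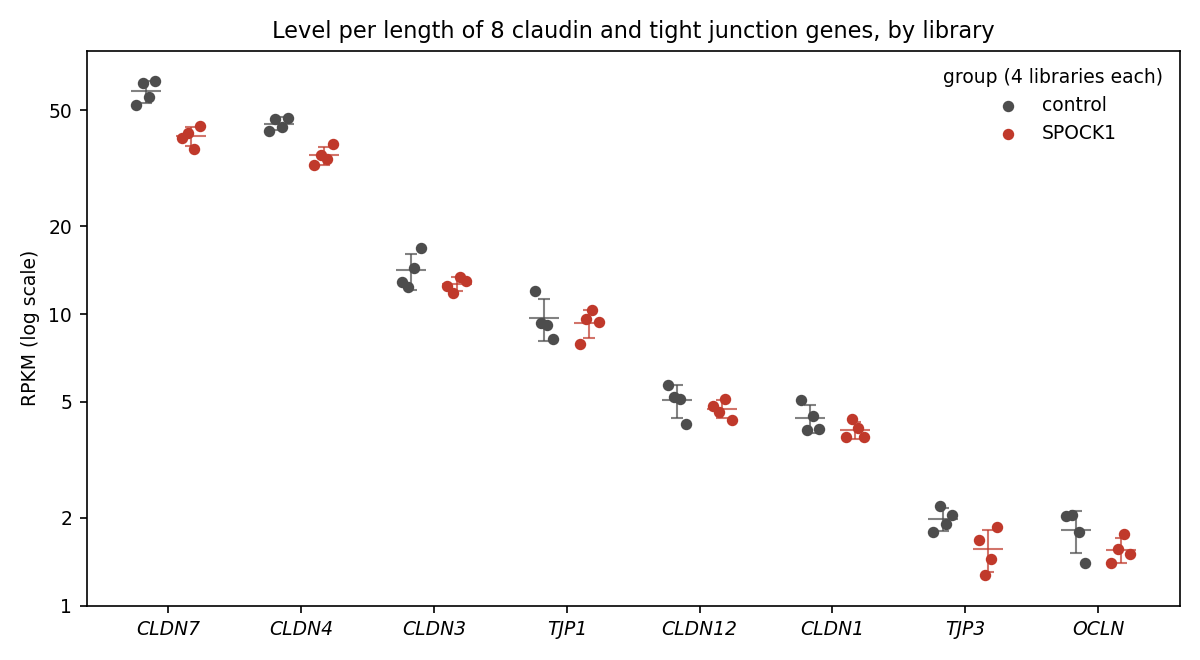
Level of the 8 tested genes as RPKM (CPM per kilobase of exonic length, log scale), 1 point per library, with mean and SD for 4 controls (grey) and 4 SPOCK1 libraries (red). The points of the groups are separate for CLDN7 and CLDN4 and overlap for the other 6 genes.

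CLDN3, a sealing claudin next to CLDN4 (minus strand, 73768997 to 73770270, ENSG00000165215), did not pass the test. It stood at 16.4, 15.8, 18.3 and 21.4 CPM in control libraries 1 to 4 and at 15.95, 15.0, 17.03 and 16.6 CPM in SPOCK1 libraries 1 to 4. The ranges overlapped, and control library 4 was the highest. Its log2 fold change was -0.16 ± 0.11 (SE), with a 95% interval of -0.40 to 0.086 (adjusted p = 0.584).

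CLDN1, a claudin of epidermal and other barriers that is also known as a target of β-catenin in colorectal cancer, likewise did not pass. On chromosome 3 (minus strand, 190305701 to 190322475), it stood at 18.6, 14.7, 16.3 and 14.8 CPM in control libraries 1 to 4 and at 13.9, 16.03, 14.9 and 13.9 CPM with SPOCK1. The ranges overlapped, with control library 1 highest. The log2 fold change was -0.13 ± 0.11 (SE; 95% interval -0.37 to 0.10, adjusted p = 0.639), and it was 0.022 (adjusted p = 0.980) within libraries 2 and 4 of both groups.

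CLDN12, an atypical claudin, was measured at 38.6, 35.0, 34.6 and 28.2 CPM in control libraries 1 to 4 and at 32.6, 31.1, 34.5 and 29.3 CPM with SPOCK1. Control library 4 was the lowest of all 8 and control library 1 the highest. The log2 fold change was -0.096 ± 0.10 (SE; 95% interval -0.32 to 0.12, adjusted p = 0.733). CLDN12 (chromosome 7, plus strand, 90383721 to 90513402) shares 347 exonic bases with GTPBP10 and 201 with CDK14 on the same strand. GTPBP10 stood at 20.5 ± 4.81 and 23.6 ± 6.74 CPM (adjusted p = 0.668) and CDK14 at 0.113 ± 0.144 and 0.530 ± 0.215 CPM (SD, n = 4 each; adjusted p = 0.152). AC006153.1 and AC002456.2 share 371 and 276 bases and had 0 counts in every library.

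CLDN2, a pore-forming claudin of leaky epithelia, had few counts. Control libraries 1 to 4 held 0, 4, 0 and 0 of its reads, and SPOCK1 libraries 1 to 4 held 2, 0, 2 and 4. A pooled count of 0 would allow 0.0196 CPM in controls and 0.0199 CPM with SPOCK1, a limit that covers counting error alone because PCR reads lacking molecular identifiers are not independent molecules. The means over libraries were 0.0270 and 0.0534 CPM, and no fold is given at this depth. A count near 0 in this table is no measure of absence, since CDC42, a GTPase that cells in general use, was listed at 20 and 22 counts in the groups and MPDZ, a junction scaffold, at 0 in every library. CLDN2 (chromosome X, plus strand, 106900164 to 106930861) shares 341 exonic bases with RIPPLY1, which had 0 counts in every library. It also lies within the span of MORC4, without shared exonic bases, and MORC4 stood at 36.9 and 35.5 CPM (adjusted p = 0.835).

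OCLN encodes occludin (chromosome 5, plus strand, 69492292 to 69558104). It stood at 13.7, 13.8, 12.1 and 9.49 CPM in control libraries 1 to 4 and at 9.47, 10.6, 11.9 and 10.2 CPM with SPOCK1. The lowest control and the lowest SPOCK1 library were nearly level. For OCLN the log2 fold change was -0.22 ± 0.13 (SE; 95% interval -0.50 to 0.064, adjusted p = 0.496). RNU6-724P and AC145146.1, within its span on the opposite strand, had 0 counts.

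The scaffold genes did not pass either. TJP1 encodes zonula occludens protein ZO-1 (chromosome 15, minus strand, 29699367 to 29968865) and stood at 135.0, 105.2, 103.7 and 92.5 CPM in control libraries 1 to 4 and at 88.9, 108.4, 116.7 and 106.2 CPM with SPOCK1. The highest value was in control library 1 and the lowest in SPOCK1 library 1. The log2 fold change was -0.054 ± 0.11 (SE; adjusted p = 0.872), and its 95% interval, -0.29 to 0.18, corresponds to a change between -18.0% and 13.1%. Its sign turned without control library 1 (0.065, adjusted p = 0.858) and without SPOCK1 library 1 (0.015, adjusted p = 0.983). Within its span, HMGN2P5 (adjusted p = 0.840), AC022613.2 (adjusted p = 0.986) and AC022613.3 (2 and 0 counts) share none of its exonic bases.

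TJP3 encodes the related scaffold ZO-3 (chromosome 19, plus strand, 3708109 to 3750813) and stood at 7.55, 9.27, 8.03 and 8.61 CPM in control libraries 1 to 4 and at 7.09, 5.36, 6.10 and 7.84 CPM with SPOCK1. Only SPOCK1 library 4 reached into the control range. The log2 fold change was -0.34 ± 0.14 (SE; 95% interval -0.64 to -0.044), near that of CLDN4 but at a lower count and with a larger error. It did not pass (adjusted p = 0.303), and TJP3 was among the 8.17% of tested genes that were lower at an unadjusted p under 0.05.

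**Figure D2:**
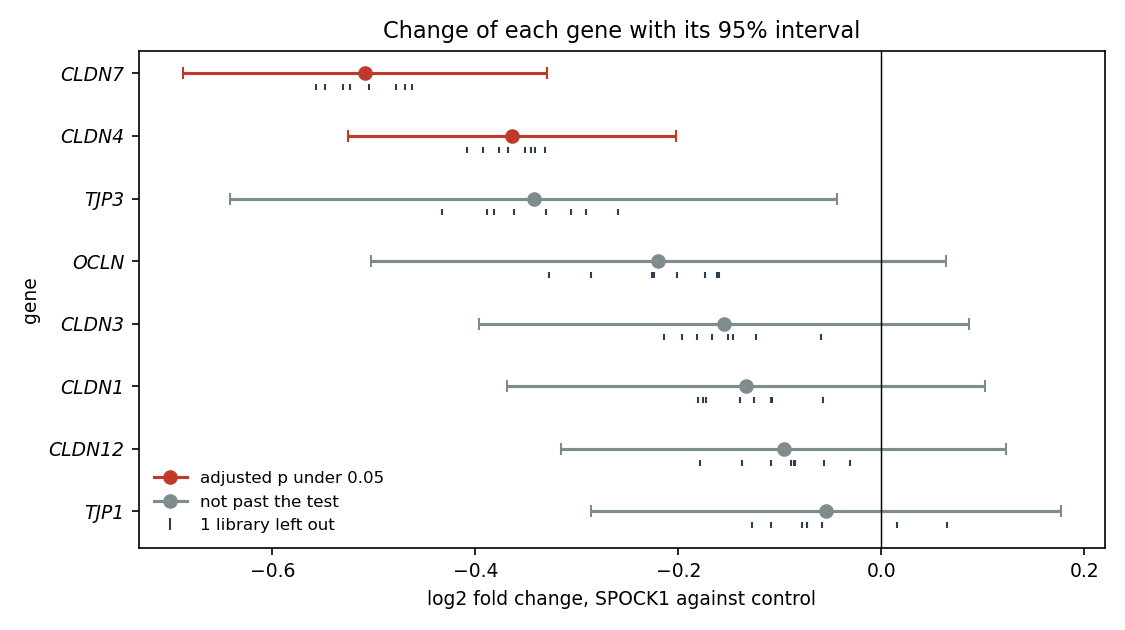
Log2 fold change of each tested gene, SPOCK1 against control, with its 95% interval; red marks an adjusted p under 0.05 and the small ticks are fits without 1 library. CLDN7 and CLDN4 lie at -0.51 and -0.36, and the ticks of TJP1 fall on both sides of 0.

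Per length, the order of the levels was the same in both groups. This order, and the claudin shares below, rest on the deposited exonic lengths, 2492 bases for CLDN7 and 4702 for CLDN4. In CPM, CLDN4 was above CLDN7 in controls (211.7 against 144.6). The single RefSeq window of CLDN4, chr7:73830746-73831045, lies near the end of its deposited span at 73832693. A transcript from that start would be shorter than 4702 bases and would raise the level of CLDN4 per length. Which transcripts were present was not tested, so the order of CLDN7 and CLDN4 is not settled. In controls CLDN7 stood at 58.0 ± 5.13 RPKM, CLDN4 at 45.0 ± 2.39, CLDN3 at 14.1 ± 2.00 and TJP1 at 9.69 ± 1.61 RPKM. CLDN12 and CLDN1 followed at 5.06 ± 0.64 and 4.39 ± 0.49 RPKM, then TJP3 and OCLN at 1.98 ± 0.18 and 1.82 ± 0.30 RPKM (SD, n = 4 each), and CLDN2 at 0.00792 RPKM. The ranges of CLDN12 and CLDN1 overlapped, as did those of TJP3 and OCLN, and other neighbours in the controls were separate. With SPOCK1, CLDN7 at 40.8 ± 3.11 and CLDN4 at 35.0 ± 2.48 RPKM overlapped too. These overlaps depend on the unit. In TPM (RPKM scaled to the same sum in every library), CLDN7 and CLDN4 were separate with SPOCK1, and CLDN3 and TJP1 overlapped in controls. Among all tested genes in controls CLDN7 ranked at place 811 and CLDN4 at place 1077 by RPKM.

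Summed over the 23 numbered claudins of the table, claudin RNA per length was 144.2 ± 7.94 RPKM in controls and 113.6 ± 5.22 RPKM with SPOCK1 (SD, n = 4 each), without overlap (135.6 to 153.1 against 109.4 to 120.7). CLDN7 and CLDN4 made up 40.2% ± 1.44 and 31.2% ± 0.31 of this sum in controls. With SPOCK1 the share of CLDN7 was 35.9% ± 1.60, with a highest library of 36.8% against a lowest control of 38.5%, and that of CLDN4 was 30.8% ± 0.86. CLDN3 took 9.77% ± 1.14 and 11.2% ± 0.81, and CLDN11, a claudin of myelin and testis barriers, 8.14% ± 0.61 and 9.41% ± 0.69. These shares are a description without a test.

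Whether CLDN7 and CLDN4 differed from the other genes was asked with count ratios within each library, which do not depend on the scaling of libraries. Of 15 log2 ratios, of CLDN7 or CLDN4 to each other tested gene and to EPCAM, 0 passed adjustment over the 15 (exact two-sided permutation test, smallest p possible 0.0286). The ratio of CLDN7 to CLDN3 was the single one without overlap, at a log2 difference of -0.36 (exact p = 0.0286, adjusted 0.1905). CLDN7 to EPCAM differed by -0.51 (exact p = 0.0571, adjusted 0.1905) and CLDN7 to CLDN4 by -0.14 (exact p = 0.0571, adjusted 0.1905). CLDN7 to TJP1 differed by -0.46 (exact p = 0.0857, adjusted 0.1905), with a larger spread between libraries. A lone ratio at the smallest possible p could not pass adjustment over 15, and the pair of numerators was chosen for its calls. Whether CLDN7 and CLDN4 fell more than the other junction genes is not settled by this test. EPCAM itself stood at 218.6 ± 22.5 and 219.7 ± 29.2 CPM (SD, n = 4 each; log2 fold change 0.0077, adjusted p = 0.981).

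The 8 tested genes fell into sets by correlation, and these sets differed in GC content. The GC content of the longest transcript was 38.1% to 44.8% in CLDN12, OCLN, CLDN1 and TJP1 and 57.5% to 69.2% in CLDN4, CLDN7, TJP3 and CLDN3. Over the 8 libraries, Pearson correlations of log2 CPM were 0.60 to 0.85 among the 6 pairs of the first set and 0.46 to 0.97 among the 6 pairs of the second. Between the sets they were -0.40 to 0.39 over 16 pairs. The points share library, depth and group, and these correlations are descriptions. Beside them, the median log2 deviation of the 1 in 5 genes highest in GC content was taken, minus that of the 1 in 5 lowest. It was -0.14, 0.20, -0.16 and 0.24 in control libraries 1 to 4. In SPOCK1 libraries 1 to 4 it was -0.28, 0.027, -0.18 and 0.27, so that libraries 1 and 3 lay below 2 and 4 in both groups. CLDN4 and CLDN7 had this order in both groups, and TJP3 had it in controls alone. TJP3 was lowest in library 2 of the SPOCK1 group, at 5.36 CPM. CLDN3, the highest in GC content, was lowest in library 2 of both groups, at 15.8 and 15.0 CPM. Whether GC content ties the sets together was not tested.

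**Figure D3:**
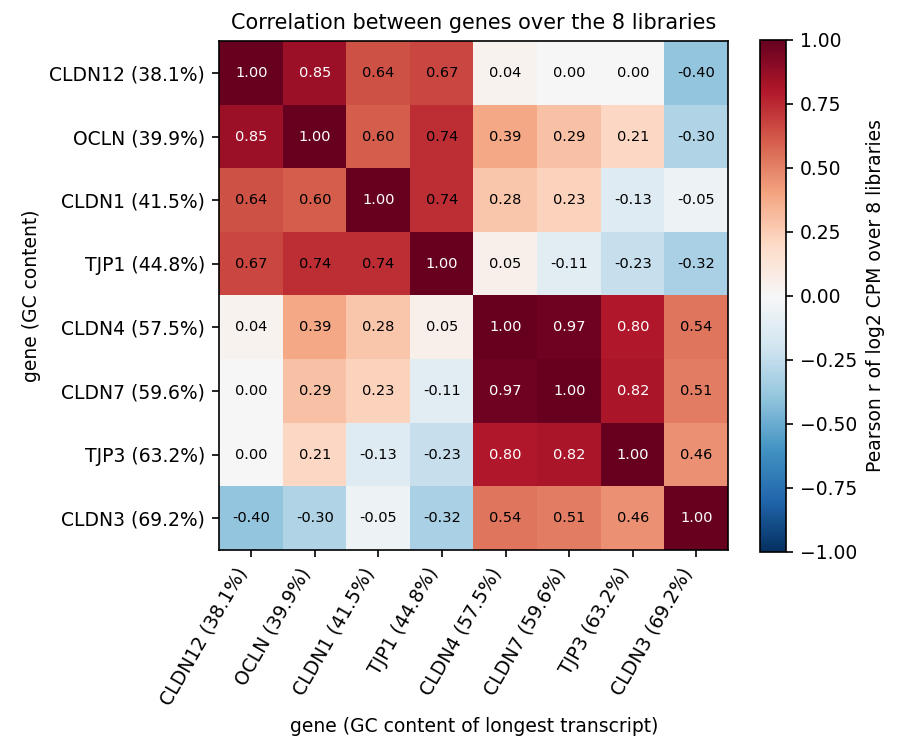
Pearson correlation of log2 CPM between the 8 tested genes over the 8 libraries, ordered by GC content of the longest transcript. The upper left and lower right blocks hold the positive correlations of 0.46 and above within each GC set, and CLDN4 and CLDN7 reach 0.97.

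Within libraries 2 and 4 of both groups alone, the log2 fold change of CLDN7 was -0.54 (adjusted p = 2.42e-04) and that of CLDN4 was -0.36 (adjusted p = 0.0217). Within libraries 1 and 3 the values were -0.48 and -0.37, with adjusted p of 0.284 and 0.351 at 2 libraries per group. Both falls were of similar size on each side of the split, and the test passed only in libraries 2 and 4. Over all genes, 94 were called as lower and 46 as higher within libraries 2 and 4, against 7 and 1 within libraries 1 and 3. Passing on a single side is therefore no statement about CLDN7 and CLDN4 in particular. This split follows the measured GC trend and no label, since the batch label is the same for all libraries.

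**Figure D4:**
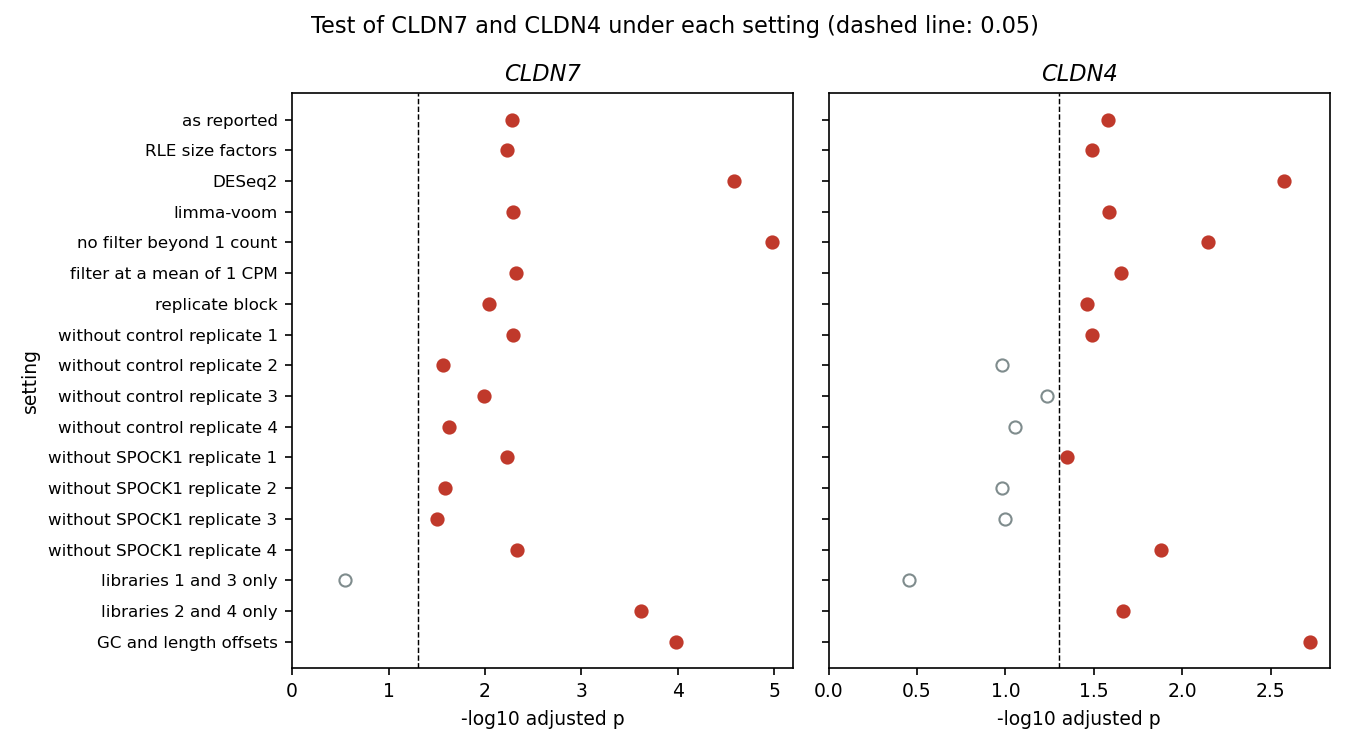
Test of CLDN7 (left) and CLDN4 (right) as -log10 of the adjusted p under each setting; filled points pass 0.05 (dashed line). CLDN7 falls short with libraries 1 and 3 only, and CLDN4 also in 5 of the 8 fits without 1 library.

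Over all genes 126 were called as lower and 39 as higher, and with GC content and length offsets 286 and 309. CLDN7 and CLDN4 ranked at places 4 and 6 of the 126 falls by mean RPKM. Their falls were small among these: CLDN7 was at place 97 by size and CLDN4 at place 126, the smallest, where the median gene fell by 34.8%. By the log2 CPM over the 8 libraries, the 3 genes most like CLDN7 among 8880 with a mean of at least 10 CPM were ACSS2, an acetyl-CoA synthetase (Pearson r = 0.99), CKB, a creatine kinase (0.99), and GLUL, glutamine synthetase (0.99). The log2 fold change was -0.42 for ACSS2 and -0.61 for CKB (adjusted p = 0.0104 and 0.00135), and -0.18 for GLUL (adjusted p = 0.259). These 3 correlations are the highest of 8880 and rest on 8 points that share library, depth and group. They are a description, and a shared control of these genes was not tested.

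Of 100 further genes of the tight junction and its control, 73 were tested, 1 was called as lower and 0 as higher, and 53 had a negative log2 fold change. Their median was -0.098. Over all tested genes 0.798% were called as lower and 0.247% as higher, 50.9% were negative and the median was -0.0042. With 1.04% of all tested genes called in either direction, 1 call among 73 is no result about these lists. The call was ELF3, an ETS transcription factor of epithelia that is placed here among factors acting on claudin genes. It stood at 5.88, 6.51, 6.77 and 7.34 CPM in control libraries 1 to 4 and at 3.80, 4.33, 3.84 and 4.42 CPM with SPOCK1. The groups did not overlap. ELF3 fell by 38.2% (log2 fold change -0.69 ± 0.14, SE, adjusted p = 0.0192), and removing control library 2 or 4, or SPOCK1 library 2 or 3, ended the call (adjusted p = 0.0545, 0.0722, 0.0520 and 0.0803). ELF3-AS1, on the opposite strand, shares 664 bases or 9.23% of the exonic bases of ELF3 and stood at 0.684 and 0.459 CPM (adjusted p = 0.578). Without a known strand setting, reads in those shared bases cannot be told apart. AL691482.3, on the same strand, also shares 664 bases and had 2 and 0 counts.

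Among other claudins 4 of 17 were tested, 0 were called and the median log2 fold change was -0.075. CLDN11 had the highest level per length of these, at 11.7 ± 0.97 and 10.7 ± 0.59 RPKM (SD, n = 4 each; adjusted p = 0.526). Other membrane proteins of the junction had 0 calls among 10 tested, with a median of -0.031. LSR, an angulin of tricellular contacts, led them at 75.9 ± 5.07 and 73.3 ± 7.82 RPKM (adjusted p = 0.834). In 2 of the 10 the groups did not overlap, both lower, as in 4.80% of all tested genes. They were MARVELD3, an occludin relative (-0.38 ± 0.13, SE, adjusted p = 0.184), and F11R, the junctional adhesion molecule JAM-A (-0.17 ± 0.090, SE, adjusted p = 0.430). Over all 73 tested further genes the groups did not overlap in 5 that were lower and 1 that was higher. In the higher direction this held for 3.43% of all tested genes. The 5 were MARVELD3, F11R, CRB3, GRHL1 and ELF3, and the 1 was PRKCZ (0.13 ± 0.089, SE, adjusted p = 0.548). MARVELD3, F11R, CRB3, GRHL1, PRKCZ, CDC42, MPDZ, EPCAM, VIL1, SNAI1, SNAI2, ZEB1 and ZEB2 were named after their values were seen.

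Other scaffolds of the junction had 0 calls among 10 tested and a median of -0.100. MPP5, also called PALS1, was the highest of them at 5.22 RPKM in both groups (adjusted p = 0.998). Apical polarity complexes had 0 calls among 15 and a median of -0.098, with SCRIB highest at 30.1 and 29.7 RPKM (adjusted p = 0.953). For CRB3, an apical membrane protein of the Crumbs complex, the log2 fold change was -0.33 ± 0.10 (SE, adjusted p = 0.167). Regulators of the junction had 0 calls among 23 and a median of -0.097, with RHOA highest at 291.1 and 326.4 RPKM (adjusted p = 0.364).

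Of 19 transcription factors 11 were tested, ELF3 was the call and the median was -0.16. CDX2, an intestinal factor, had the highest level, at 25.3 and 22.6 RPKM (adjusted p = 0.452). The repressor SNAI1 stood at 10.0 ± 1.09 and 8.41 ± 0.76 CPM (adjusted p = 0.389). ZEB1 stood at 2.82 ± 0.13 and 2.60 ± 0.69 CPM (SD, n = 4 each; adjusted p = 0.846), SNAI2 at 1.13 ± 0.50 and 1.70 ± 0.60 CPM (adjusted p = 0.467), and ZEB2 had 2 counts in each group. None of these E-box-binding repressors was called in either direction, and ZEB2 was too low to test. The log2 fold change of SNAI2 was 0.58, with a wide 95% interval of -0.13 to 1.29. Whether these repressors had a part in the claudin changes was not tested.

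**Figure D5:**
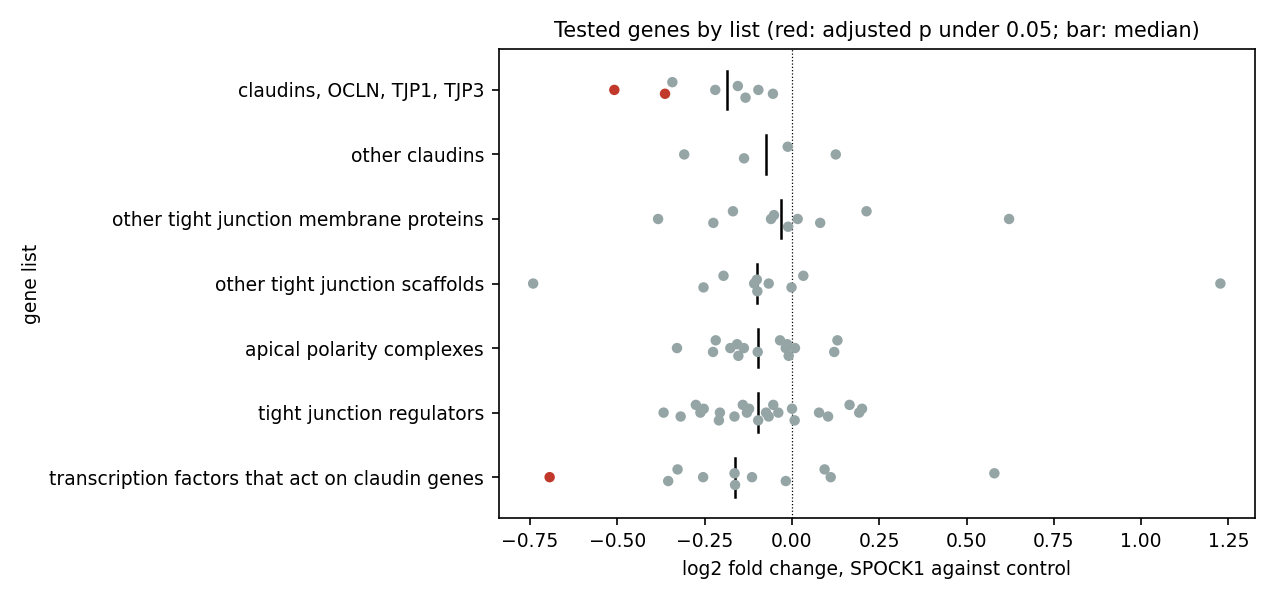
Log2 fold changes of tested genes by list, 1 point per gene, with the list median as a bar and calls in red. CLDN7, CLDN4 and ELF3 are the calls, all on the lower side.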

How the data were processed

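The deposited values are whole-number read counts per gene that the authors had not normalized. The submitters' processing notes list featureCounts 1.5.0-p3, HISAT2 2.0.5 and CASAVA. The genome build, strand setting and handling of multi-mapping reads were not given in the sources used here. Start, end and strand of all 58735 genes matched GENCODE release 29. RPKM were computed with the deposited gene lengths in bases. Groups follow the library titles.

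Counts of 15790 genes passing filterByExpr (minimum count 10, minimum total 15) were tested in R 4.3.3 using edgeR 4.0.16 (TMM factors, quasi-likelihood F test, no covariates, Benjamini-Hochberg over all tested genes), a procedure also tested on simulated data. CPM used TMM-scaled library sizes, and SE came from the F statistic. Alternatives were RLE factors, DESeq2 1.42.0, limma-voom (limma 3.58.1), other filters, leaving out each library, a block for the replicate number, libraries 1 and 3 or 2 and 4 alone, offsets from natural splines of 5 degrees of freedom on GC content (known for 99.95% of tested genes) and length, and TPM in place of RPKM. Members and lists were chosen with earlier results of these data known, and the 15 ratios, the correlations between members and the motifs after values were seen. Named were all 9 members, SPOCK1, genes overlapping a member, called genes of the wider lists with the highest of each list per length, and the 3 genes most like the member of smallest p.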

Additional observations from a re-analysis of the deposited data

Results flagged for a closer look

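CLDN2 in control library 2 stood apart from the other controls, at 0.108 CPM from 4 counts against 0 counts in the other 3. Of 34 groups of 4 libraries examined for a lone library, 1 was set apart in this way, and chance sets apart about 1 in 20, a rate that holds for continuous values and not for counts this low.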

How the results depend on the processing

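CLDN7 was called in 16 of 17 alternatives and CLDN4 in 11 of 17, with log2 fold changes of -0.56 to -0.46 and of -0.41 to -0.30. The number of the 9 genes called as lower was 1 to 2 over the 8 fits without 1 library and 0 within libraries 1 and 3, and 0 were called as higher in any setting. Over all genes, calls were 285 lower and 113 higher with DESeq2, 279 and 120 with no filter beyond 1 count, 286 and 309 with GC content and length offsets, 7 and 1 within libraries 1 and 3, and 63 to 171 lower and 24 to 66 higher without 1 library. The falls numbered 72 when control library 2 was left out, 66 for SPOCK1 library 2 and 63 for SPOCK1 library 3. The rises numbered 24 when control library 2 was left out, 25 for control library 4, 24 for SPOCK1 library 2 and 66 for SPOCK1 library 4. The wider lists had 0 to 2 falls without 1 library, 0 within libraries 1 and 3, 0 within libraries 2 and 4, and 2 with GC content and length offsets, CRB3 being the addition to ELF3. The sign turned for CLDN1 within libraries 2 and 4 (0.022) and for TJP1 there (0.12), without control library 1 (0.065) and without SPOCK1 library 1 (0.015), each at an adjusted p of 0.702 or above. Over the 8 fits without 1 library TJP1 ranged from -0.13 to 0.065, at adjusted p of 0.661 to 0.983. The cause of these shifts was not tested. The order of levels was the same in TPM, while some overlaps between neighbours differed.

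The replicate numbers were not taken to pair the libraries, since deviations of same-numbered libraries correlated at -0.16, 0.090, 0.11 and 0.18, and the highest correlation was of control library 3 with SPOCK1 library 1 (0.35). Among libraries 1 and 3, and among 2 and 4, 7 of 8 pairs across the groups were positive, and all 8 pairs between those sets were negative. With the number as a block 84 genes were called as lower and 31 as higher, and CLDN7 and CLDN4 kept their calls (adjusted p = 0.00899 and 0.0344). CLDN2 was too low to test.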
